A study of Mus musculus with 137 samples.

Results

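The 10 genes described here encode proteins of the contacts between intestinal epithelial cells, and they were followed in duodenal crypts and villi of mice that drank hexavalent chromium, Cr(VI). They were the claudin genes Cldn2, Cldn3, Cldn4, Cldn7 and Cldn15, the tight junction scaffold Tjp1 (zonula occludens 1), the tight junction membrane protein Ocln (occludin), and the adherens junction genes Cdh1 (E-cadherin), Ctnnb1 (beta-catenin) and Ctnnd1 (p120-catenin). The genes were picked by symbol from the 21450 genes measured. A gene with more than 1 probe was read from its most counted probe, summed over all libraries. All 10 passed the filter on low counts, as did 26365 of the 30146 probes, which covered 19020 genes.

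Tight junctions close the gap between neighbouring epithelial cells near the gut lumen, and the claudins in their strands decide which ions and solutes pass between the cells. Cldn2 and Cldn15 form channels for small cations, Cldn2 being known from the crypts of the intestine, while Cldn3 and Cldn4 are usually counted among the sealing claudins and Cldn7 also lies along the sides of the cell. Adherens junctions sit below and hold cells together through Cdh1, whose inner end binds Ctnnb1 and Ctnnd1, and Ctnnb1 outside the junction carries the Wnt signal that maintains crypt stem cells.

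The mice were female wildtype B6C3F1 animals given Cr(VI), as sodium dichromate dihydrate, in the water they drank. The doses were 0 (untreated), 0.1, 1.4, 5, 20, 60 and 180 ppm and the exposure lasted 7 or 90 days. Crypts and villi were scraped from sections of fixed and embedded duodenum, and RNA was read with TempO-Seq, in which pairs of oligos (a probe) are joined on their target RNA and counted by sequencing. Each library came from a different mouse within its group, so the replicates are animals. The 71 mice gave 71 crypt and 66 villus libraries in 28 groups, and 66 mice gave both. Most groups had 5 mice. The 7 day crypt group at 0.1 ppm had 6, and 4 villus groups had 4 (untreated at 90 days, and 5, 20 and 180 ppm at 7 days). Levels below are in CPM, counts scaled to a common library total after trimmed-mean (TMM) normalization. Probes differ in how well they capture their target, so levels of different genes were not compared. In tissue scrapings, fewer cells of a type and less RNA per cell cannot be told apart.

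In the mouse annotation of the GRCm38 build, Cldn2 lies on the plus strand of chromosome X (139800828 to 139811386). Cldn3 and Cldn4 are near neighbours on chromosome 5, at 134986214 to 134987472 (plus strand) and 134945119 to 134946934 (minus strand), and Cldn15 is further along the same chromosome (136966616 to 136975858, plus strand). Ctnnb1 spans 120929216 to 120960507 on chromosome 9 (plus strand) and Ctnnd1 84600071 to 84650765 on chromosome 2 (minus strand). Tjp1 has the longest locus of the 10, at 65296165 to 65527781 on chromosome 7 (minus strand). Which exons the probes cover is not given in the sources used here.

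The libraries held 1463938 to 7199801 counts with a median of 3592983. The summed level of 8 crypt markers (among them Lgr5, Olfm4, Lyz1 and Mki67) was higher in the crypt than in the villus library of 65 of 66 mice. Lyz1 was the largest part of this sum (mean 2217 CPM in crypts and 371.3 CPM in villi). Lgr5 (4.81 and 5.45 CPM) and Ascl2 (0.615 and 0.443 CPM) were low in both. The untreated 7 day libraries of crypt mouse 49 (crypt marker sum 606 CPM, villus enterocyte marker sum 67200 CPM) and villus mouse 48 (3629 and 42120 CPM) stood closest to the other compartment. The crypt library of mouse 447 (60 ppm, 7 days) had the lowest enterocyte marker sum in its group (5363 CPM) and a smooth muscle marker sum of 3750 CPM, against a group median of 908.7 CPM. The untreated villus libraries of day 90 were shallow, with a median of 2172693.5 counts against 4000110.0 at 180 ppm, and there the median log2 difference of all probes was 0.43, 0.33, 0.23 and 0.11 at 5, 20, 60 and 180 ppm. Scaled by DESeq2 size factors instead of TMM, these medians were 0.26 at the lowest of those doses and 0 at the others, so single doses in villi at 90 days whose call differed between the scales are given on both.

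The first question was which junction genes changed with dose in each compartment. Each dose was compared with untreated libraries of the same compartment and time by edgeR's quasi-likelihood test, and a gene was called at a Benjamini-Hochberg adjusted p under 0.1 over all probes. The shares of probes set beside the calls are over all 26365 probes, of which 9975 had a mean of at least 10 CPM. Members are read from the most counted probe of their gene, so these shares are not matched to them for level. In crypts at 7 days, no member was called at 0.1, 1.4 or 20 ppm, where 0.0152%, 0.00379% and 0.247% of all probes were called, and at each of these doses 1 member (Ctnnd1) had an unadjusted p under 0.05 and DESeq2 called 1. Of all probes, 5.58%, 6.09% and 7.65% had an unadjusted p under 0.05 there, and DESeq2 called 18, 10 and 213 probes. At 5 ppm 1 member (Ctnnd1) was called lower with 0.0152% of probes called, and at 60 and 180 ppm 1 member (Cldn2) was called higher with 2.14% and 4.13% of probes called. In crypts at 90 days no member was called at 0.1, 1.4, 5 or 20 ppm (0%, 0%, 0.00379% and 0.535% of probes), where 1, 1, 2 and 1 members had an unadjusted p under 0.05 and DESeq2 called 0. The shares of all probes with such an unadjusted p were 2.86%, 3.35%, 7.54% and 9.62%, and DESeq2 called 11, 18, 12 and 355 probes. At 60 ppm 5 of the 10 were called, Cldn2, Tjp1, Ctnnb1 and Ctnnd1 higher and Cldn3 lower, beside 14.5% of probes, and at 180 ppm Cldn2 and Ctnnb1 were called higher beside 6.49% of probes.

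In villi at 7 days no member was called from 0.1 to 20 ppm (0%, 1.52%, 0.357% and 2.61% of probes), with 2, 3, 2 and 1 members at an unadjusted p under 0.05 by edgeR and 0 called by DESeq2. The shares of all probes with such an unadjusted p were 6.63%, 14.3%, 11.8% and 14.4%, and DESeq2 called 24, 1102, 772 and 1410 probes. At 60 ppm Cldn2 and Cdh1 were called higher (6.58% of probes called), and at 180 ppm Cldn2 was called higher and Cldn15 lower (5.97%). In villi at 90 days none was called at 0.1 and 1.4 ppm (0.0341% of probes at each), with 0 and 2 members at an unadjusted p under 0.05 by edgeR and 0 called by DESeq2. Beside them, 8.3% and 9.35% of all probes had such an unadjusted p, and DESeq2 called 561 and 463 probes. At 5 ppm Ctnnb1 and Ctnnd1 were called higher and Cdh1 lower (10.9%). Cldn2 and Ctnnb1 were called higher at 20 ppm (14.7%) and at 60 ppm (15.5%), and at 180 ppm Cldn2, Tjp1 and Ctnnb1 were called higher and Cldn15 lower (13.8%). Among the 10 genes, Cldn2 was called in every compartment and time at 60 and 180 ppm, Ctnnb1 was called at 90 days and at no dose at 7 days, and Cldn4, Cldn7 and Ocln were called at no dose by edgeR in the fit of all libraries. Other fits called each of these 3 at single doses, given with the genes below.

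**Figure D1:**
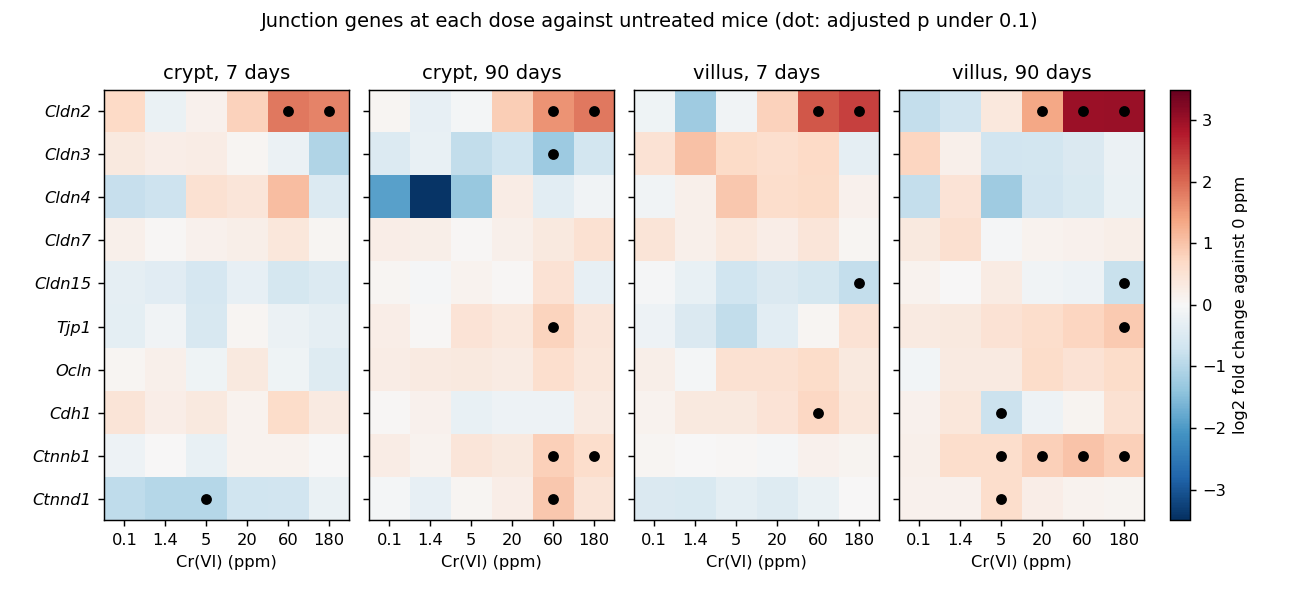
Log2 fold change of each gene (rows) at each dose in ppm (columns) against untreated mice, in 4 panels for compartment and time, with red for higher and blue for lower and a dot where the edgeR adjusted p was under 0.1. Dots fill the Cldn2 row at 60 and 180 ppm in all 4 panels and the Ctnnb1 row from 5 ppm upward in the villus at 90 days, while the deep blue Cldn4 square in the crypt at 1.4 ppm and 90 days (-3.44) carries no dot.

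A linear contrast over the 7 doses, scored by rank, gave a slope in log2 units per dose step. In crypts Cldn2 (slope 0.31) was called higher and Cldn3 (-0.16, adjusted p = 0.0898 by edgeR) lower at 7 days, beside 9.47% of probes, and the Cldn3 slope was lost in 15 of 20 fits that left out 1 library and in 4 of 10 processing alternatives. At 90 days Cldn2 (0.35), Tjp1 (0.10), Ctnnb1 (0.12) and Ctnnd1 (0.14) were called higher and Cldn3 (-0.14) lower, beside 18.6% of probes, with Tjp1 lost in 4 of 15 fits without 1 library and Cldn3 in 1. In villi Cldn2 (0.49) and Cdh1 (0.09) were called higher and Cldn15 (-0.14) lower at 7 days (14% of probes), with Cdh1 lost in 7 of 14 fits without 1 library and in 3 of 10 processing alternatives. At 90 days Cldn2 (0.67), Tjp1 (0.14), Ocln (0.12) and Ctnnb1 (0.16) were called higher and Cldn15 (-0.11) and Cldn3 (-0.14) lower (26.3%), with Cldn3 lost in 6 of 24 fits without 1 library. On size-factor scaling the slopes of Tjp1 (0.08, adjusted p = 0.116) and Ocln (0.07, adjusted p = 0.188) were not called there and that of Cldn7 (-0.07, adjusted p = 0.0613, edgeR) was. The median slope of the 10 genes in the 90 day villus was 0.0219, beside 0.0708 for all probes.

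Cldn2, the cation channel claudin, rose at 60 and 180 ppm in all 4 settings. In crypts at 7 days its level in the untreated libraries was 49.2, 94.7, 99.0, 146 and 205 CPM (mean 118.9 ± 59.2, SD, n = 5). At 180 ppm it was 231, 289, 292, 461 and 727 CPM, every library above every untreated one. At 60 ppm it was 187, 311, 464, 584 and 607 CPM, where the lowest value, that of mouse 447, fell inside the untreated range. The log2 fold changes were 1.85 ± 0.43 (SE) at 60 ppm (3.61-fold, adjusted p = 0.00579, edgeR) and 1.74 ± 0.43 at 180 ppm (3.35-fold, adjusted p = 0.00645), and the change at 60 ppm was 2.07 without the library of mouse 447.

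After 90 days the untreated crypt libraries held 130.2, 160.5, 162, 185 and 196 CPM of Cldn2 (mean 166.9 ± 25.6, SD, n = 5). At 60 ppm they held 395, 435, 514, 555 and 598 CPM and at 180 ppm 405, 507, 518, 779 and 802 CPM. Both groups lay wholly above the untreated one. The log2 changes were 1.58 ± 0.43 (2.99-fold, adjusted p = 0.00582, edgeR) and 1.85 ± 0.43 (3.60-fold, adjusted p = 0.00259). At 20 ppm the 5 libraries (253 to 384 CPM) were again all above the untreated ones, with a log2 difference of 0.85 (95% interval 0.02 to 1.68), which was not called in the fit of all libraries (adjusted p = 0.505) and was called when crypts at 90 days were fitted alone (adjusted p = 0.0023, edgeR).

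In villi Cldn2 rose from a lower untreated level. At 7 days the untreated libraries held 18.8, 25.5, 66.0, 78.2 and 107 CPM, those at 60 ppm 199 to 351 CPM, and the 4 at 180 ppm 177, 243, 348 and 494 CPM. No exposed library at either dose overlapped the untreated ones, and the log2 changes were 2.16 ± 0.45 (4.47-fold) and 2.39 ± 0.47 (5.26-fold; adjusted p = 0.000655 and 0.000176, edgeR). At 90 days the 4 untreated libraries held 6.98, 13.8, 35.9 and 83.4 CPM, those at 60 ppm 179, 254, 271, 337 and 387 CPM, and those at 180 ppm 93.3, 107, 310.3, 369 and 558 CPM. Again all exposed libraries were higher, by 3.00 ± 0.53 (7.98-fold, adjusted p = 7.06e-06, edgeR) and 3.01 ± 0.53 (8.06-fold, adjusted p = 6.95e-06) on the log2 scale. The fold at 20 ppm and 90 days (2.56-fold, log2 difference 1.36 ± 0.52, adjusted p = 0.0769) was called, but the libraries overlapped (62.2 to 118 CPM) and the call was lost in 6 of 9 fits that left out 1 library of either group and in 8 of 10 processing alternatives, with a log2 value of 1.02 on size-factor scaling.

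**Figure D2:**
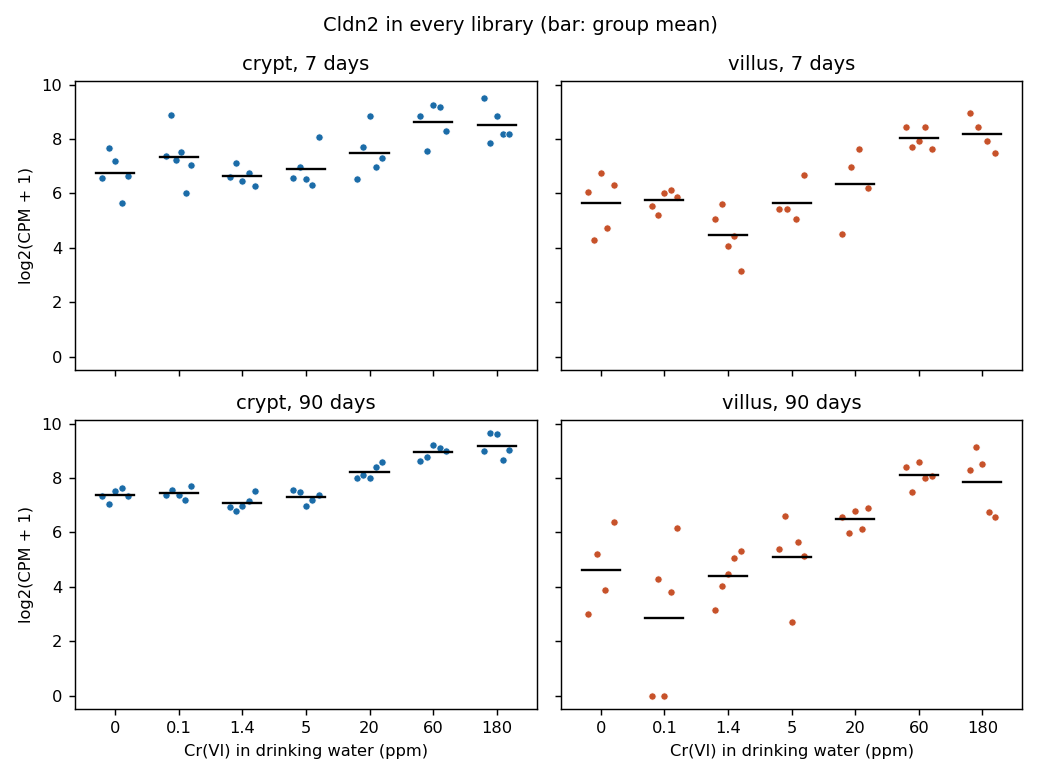
Cldn2 level as log2(CPM + 1) in each library (points) against the dose of Cr(VI) in ppm, with a bar for the group mean, in panels for crypt and villus at 7 and 90 days. At 180 ppm every point lies above every point at 0 ppm in all 4 panels, and the villus panels start lower, with 2 libraries at 0 CPM at 0.1 ppm and 90 days.

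Whether the Cldn2 response was larger in the villus was tested directly. The villus effect of 180 ppm exceeded the crypt effect by 0.65 log2 units at 7 days (95% interval -0.58 to 1.88, adjusted p = 0.807, edgeR) and 1.16 at 90 days (-0.13 to 2.45, adjusted p = 0.694), so no difference was called and the intervals allow both none and a several-fold one. The crypt library held more Cldn2 than the villus library in 64 of 66 mice. In untreated mice the crypt minus villus difference was 0.99 on the log2 scale at 7 days (adjusted p = 0.355) and 2.23 at 90 days (adjusted p = 0.00205, edgeR). With the mouse as a block the difference at 7 days was 1.0 and passed (adjusted p = 0.00783), and without the libraries of mice 48 and 49 that stood closest to the other compartment it was 1.53 (adjusted p = 0.0551). At 180 ppm the differences were 0.34 at 7 days and 1.06 at 90 days (adjusted p = 0.122; 1.28 with the mouse as a block, adjusted p = 1.01e-07).

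The group median of the crypt marker sum in villus libraries was not higher at 60 and 180 ppm. After 90 days it was 460 CPM at 0 ppm, 371.4 CPM at 60 ppm and 413.1 CPM at 180 ppm. After 7 days it was 1138 CPM, 209.7 CPM and 642.7 CPM. Single 7 day villus libraries stood far above these medians, untreated mouse 48 at 3629 CPM and mouse 447 (60 ppm) at 1789 CPM. The villus library of mouse 447 also had a smooth muscle marker sum of 2018 CPM. The summed level of 5 pan-epithelial markers (Krt8, Krt18, Krt19, Krt20 and Cdx2) was higher with dose. Its median at 60 and 180 ppm was 1.59 and 1.20 times the untreated median in crypts at 7 days, 2.07 and 2.21 times at 90 days, 1.27 and 1.46 times in villi at 7 days and 2.2 and 1.87 times at 90 days. Other marker sums moved with the same groups. In 90 day villi at 60 and 180 ppm the fibroblast sum was 2.59 and 2.81 times untreated, the leukocyte sum 2.92 and 2.62 times and the goblet sum 2.31 and 1.81 times. In crypts the enterocyte sum was 0.647 and 0.428 times and the leukocyte sum 0.5 and 0.412 times untreated at 7 days, and at 60 ppm and 90 days the smooth muscle sum was 0.42 times and the goblet sum 2.37 times. The part of these sums in the Cldn2 result was not tested. The median sum of pancreatic acinar markers in crypts was 3.68 times untreated at 180 ppm and 7 days and 4.31 times at 60 ppm and 90 days. Single libraries varied far more. At 90 days the sum ran from 8.97 to 136100 CPM (mouse 5) in untreated crypts and from 38.0 to 16770 CPM at 60 ppm, so no steady rise is shown. With that sum as a covariate Cldn2 was called at 60 and 180 ppm in all 4 settings. A single summed covariate does not measure how much pancreatic tissue a library held, and the part of such tissue in the Cldn2 result was not tested.

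Cldn15, the other channel-forming claudin, fell in villi at the highest dose. At 7 days its level was 280.3, 321, 373, 457 and 515 CPM untreated and 133, 210.5, 243 and 278 CPM at 180 ppm. At 90 days it was 313, 335, 386 and 455 CPM untreated and 180.1, 192, 194, 253 and 269 CPM at 180 ppm. The groups did not overlap at either time, all exposed libraries being lower. The log2 differences were -0.85 ± 0.25 at 7 days (adjusted p = 0.0276, edgeR) and -0.77 ± 0.24 at 90 days (adjusted p = 0.0230), and on size-factor scaling that at 90 days was -1.06. Without 1 library the calls were lost, at 7 days without villus replicate 4 at 180 ppm (-0.62, adjusted p = 0.238) and at 90 days without untreated villus replicate 1 (-0.67, adjusted p = 0.105), while the dose slopes were called in every fit that left out 1 library. Median enterocyte marker sums in these villi were 71350 CPM untreated and 39890 CPM at 180 ppm after 7 days, and 68380 CPM and 76090 CPM after 90 days. Their part in the Cldn15 result was not tested.

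In 90 day villi at 60 ppm Cldn15 was called lower on size-factor scaling (-0.56, adjusted p = 0.0971, edgeR) and not in the main scaling. In crypts it was not called at any dose in the edgeR fit of all libraries. At 60 ppm and 7 days DESeq2 called it lower (-0.67, adjusted p = 0.0333), as did edgeR on size factors (-0.66, adjusted p = 0.0993). At 60 ppm and 90 days its 5 libraries (475 to 559 CPM) all lay above the untreated ones (292 to 452 CPM), a difference of 0.50 (95% interval 0.06 to 0.95, adjusted p = 0.159, edgeR; 0.45 and adjusted p = 0.0148 when 90 day crypts were fitted alone), and at 180 ppm the level was 219.8 to 403 CPM. The 180 ppm effect did not differ detectably between compartments (villus minus crypt -0.37, interval -1.02 to 0.29, at 7 days and -0.49, interval -1.14 to 0.16, at 90 days).

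Among the sealing claudins, Cldn3 was called at a single dose and Cldn4 at none in the edgeR fit of all libraries. Cldn3 in 90 day crypts was 13.4, 24.6, 30.4, 39.1 and 65.2 CPM in untreated libraries and 7.89, 13.3, 14.8, 17.0 and 18.8 CPM at 60 ppm. Most exposed libraries lay below most untreated ones, with overlap at the lower end, and the log2 difference was -1.28 ± 0.41 (adjusted p = 0.0234, edgeR). Without untreated crypt replicate 1 it was -0.98 and not called (adjusted p = 0.172), and at 180 ppm the level of 14.7 to 38.6 CPM gave -0.65 (interval -1.41 to 0.10). At 7 days the crypt value at 180 ppm was -1.06 (adjusted p = 0.259, edgeR).

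Cldn4 was lower in crypts than in villi. In untreated mice at 90 days its level was 3.27, 4.04, 4.82, 7.53 and 8.00 CPM in crypts and 11.9, 20.3, 31.6 and 181 CPM in villi. At 180 ppm and 90 days it was 1.80 to 9.73 CPM in crypts and 22.8 to 82.2 CPM in villi. In both pairs of groups all crypt libraries lay below all villus libraries. The crypt minus villus log2 difference was -3.45 ± 0.63 untreated (adjusted p = 4.32e-05, edgeR) and -3.33 ± 0.59 at 180 ppm (adjusted p = 2.00e-05). At 7 days it was -2.93 ± 0.76 untreated (adjusted p = 0.0662, -2.98 and adjusted p = 0.000272 with the mouse as a block) and -3.55 ± 0.84 at 180 ppm (adjusted p = 0.00302). The untreated call at 7 days was lost in 7 of 10 fits that left out 1 library, and with the older edgeR fit. Leaving out 1 library lost the untreated call at 90 days in 1 of 9 fits. It lost the 180 ppm call at 7 days in 1 of 9 fits and that at 90 days in 0 of 10. The difference stayed negative in all these fits without 1 library. The crypt library held more Cldn4 than the villus library in 2 of 66 mice, and in 1 mouse both were at 0.

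Cldn4 counts were low. It was at 0 in 18 libraries, 15 of them from crypts, where 3 counts would have given 0.569 to 1.61 CPM, a bound for counting error only. Against untreated mice its largest differences were in 90 day crypts at 0.1 ppm (-1.89) and 1.4 ppm (-3.44, levels of 0, 0, 0, 0.805 and 1.29 CPM), where all exposed libraries were below all untreated ones, and neither was called (adjusted p = 1 for both, edgeR). When 90 day crypts were fitted alone, edgeR called the value at 1.4 ppm (-3.47, adjusted p = 0.0770) and a rising dose slope (0.22, adjusted p = 0.0199). In 90 day villi at 5 ppm it was called lower on size-factor scaling (-1.49, adjusted p = 0.0861, edgeR) and with thinned counts (-1.44, adjusted p = 0.0436). At 180 ppm its differences were between -0.48 and 0.14 in the 4 settings, with intervals as wide as -2.72 to 1.76 in crypts at 7 days.

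**Figure D3:**
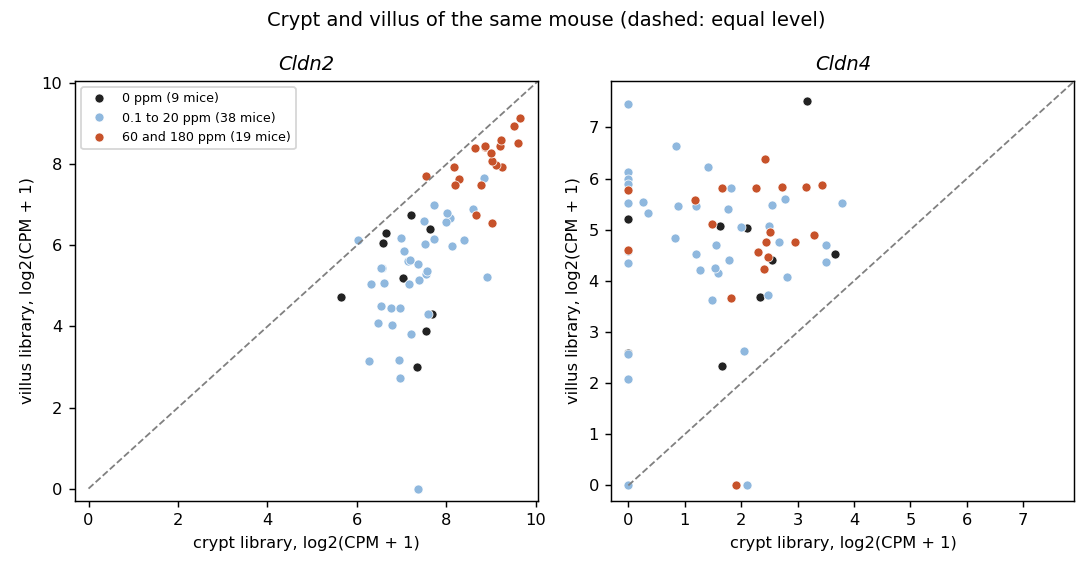
Level of Cldn2 (left) and Cldn4 (right) in the crypt library (horizontal axis) and the villus library (vertical axis) of each of 66 mice, both as log2(CPM + 1), coloured by dose, with a dashed line of equal level. Cldn2 points lie below the line in 64 mice and approach it at 60 and 180 ppm, and Cldn4 points lie above it in all but 3 mice.

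Cldn7, which had 3 probes, was not called at any dose by the probe that stands for it in the edgeR fit of all libraries. At 180 ppm the differences were 0.07 at 7 days in both compartments, 0.53 in crypts at 90 days (interval 0.13 to 0.93, adjusted p = 0.133, edgeR) and 0.20 in villi at 90 days (interval -0.23 to 0.63). The crypt value at 90 days was called when these crypts were fitted alone (adjusted p = 0.0115, edgeR) and with a mean count of at least 10 (adjusted p = 0.0614), and DESeq2 called Cldn7 higher in 7 day villi at 60 ppm (0.46, adjusted p = 0.0921). Its other probes differed from it in the 90 day villus. Probe Cldn7_70159 was lower at 20, 60 and 180 ppm (-1.37, -1.49 and -1.94) and probe Cldn7_30337 at 20 ppm (-0.75), all called, so the Cldn7 reading in the 90 day villus depends on the probe.

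Tjp1, the scaffold that ties claudins and occludin to actin, was called higher at 1 dose in each compartment at 90 days. In crypts its level was 42.0, 53.2, 71.1, 74.3 and 97.1 CPM untreated and 109.7, 110.3, 112, 112 and 132 CPM at 60 ppm, all exposed libraries being higher (log2 difference 0.77 ± 0.28, adjusted p = 0.0506, edgeR). In villi it was 24.9, 39.1, 57.0 and 101 CPM untreated and 68.0, 76.4, 93.0, 109.6 and 173 CPM at 180 ppm, with overlap (0.92 ± 0.31, adjusted p = 0.0409). On size-factor scaling neither was called (0.50 and 0.62). The crypt call was lost in 4 of 10 fits without 1 library (0.60 to 0.89) and in 5 of 10 processing alternatives, and the villus call in 3 of 9 fits (0.60 without villus replicate 3 at 180 ppm). The other Tjp1 probes followed the first weakly across libraries (r = 0.24 and -0.02, as a description), and probe Tjp1_31684, which was at 0 in 28 libraries, gave -1.05 in the crypt at 60 ppm.

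Ocln, a membrane protein of the strands, was not called at any dose in the edgeR fit of all libraries. DESeq2 called it higher in 7 day villi at 60 ppm (0.65, adjusted p = 0.0912), and thinned counts in 90 day villi at 20 ppm (0.67, adjusted p = 0.0967, edgeR). At 180 ppm in 90 day villi its level was 100.2 to 190.2 CPM against 64.4 to 109 CPM untreated (log2 difference 0.64, interval 0.06 to 1.22, adjusted p = 0.174, edgeR), and its dose slope there (0.12) was called (adjusted p = 0.0108). At 60 ppm in 90 day crypts all 5 libraries were above the untreated ones (0.60, interval 0.07 to 1.12, adjusted p = 0.161). Fitted alone, 90 day crypts gave a call at 60 ppm (adjusted p = 0.0348, edgeR) and 90 day villi at 180 ppm (adjusted p = 0.0916). Ocln and Tjp1 were both lower in crypts than in villi of mice at 180 ppm and 7 days. Ocln was 43.3 to 67.6 CPM in crypts and 71.4 to 116 CPM in villi without overlap (-0.87 ± 0.29, adjusted p = 0.0612, edgeR), and Tjp1 was 39.0 to 116 CPM and 90.3 to 129 CPM (-0.85 ± 0.30, adjusted p = 0.0745, -1.22 and adjusted p = 0.00119 with the mouse as a block). Each of these calls was lost in 7 of 9 fits that left out 1 library.

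Cdh1, the adhesive receptor of the adherens junction, gave calls in opposite directions at single doses. In 7 day villi at 60 ppm it was 154 to 242 CPM against 96.2 to 162 CPM untreated (0.73 ± 0.25, adjusted p = 0.0754, edgeR), and in 90 day villi at 5 ppm it was 69.9, 84.4, 85.1, 94.8 and 114 CPM against 131, 144, 156 and 169.9 CPM (-0.74 ± 0.27, adjusted p = 0.0769). The libraries overlapped in the first and not in the second case. Leaving out 1 library lost the first call in 6 of 10 fits and the second in 5 of 9, and at the doses next to 5 ppm in the 90 day villus (1.4 and 20 ppm) Cdh1 was not called.

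Ctnnb1, which links Cdh1 to the actin anchor and carries the Wnt signal, rose at 90 days in both compartments. Its untreated crypt libraries held 248, 287, 295, 313 and 315 CPM. At 60 ppm they held 456, 509, 514, 535 and 590.4 CPM and at 180 ppm 336, 456, 466, 469.9 and 497 CPM. All exposed libraries at both doses were above all untreated ones, by 0.84 ± 0.19 (adjusted p = 0.000655, edgeR) and 0.61 ± 0.19 (adjusted p = 0.0379) on the log2 scale.

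In 90 day villi the untreated libraries held 206, 275, 289.7 and 324 CPM of Ctnnb1. Those at 20 ppm held 389 to 534 CPM, at 60 ppm 454, 552, 557, 567 and 597 CPM, and at 180 ppm 433, 434, 463, 499 and 610.3 CPM. None of these overlapped the untreated range, and the log2 differences were 0.83 (adjusted p = 0.0021), 0.99 (adjusted p = 0.000136) and 0.83 (adjusted p = 0.00205, edgeR). The difference at 5 ppm was 0.61 (303 to 503 CPM, with overlap, adjusted p = 0.0496), and that at 1.4 ppm was 0.62 without overlap (399.5 to 467 CPM) but not called (adjusted p = 0.284). On size-factor scaling the values at 20, 60 and 180 ppm were 0.48, 0.60 and 0.55 and still called, and that at 5 ppm was 0.43 and not called (adjusted p = 0.115).

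At 7 days Ctnnb1 was called at no dose, with log2 differences between -0.25 and 0.14 over the 12 comparisons. The 180 ppm values were -0.01 in crypts (interval -0.38 to 0.36) and 0.11 in villi (-0.29 to 0.50). The 180 ppm effect at 90 days minus that at 7 days was 0.62 in crypts (interval 0.10 to 1.1, adjusted p = 0.695, edgeR) and 0.73 in villi (0.16 to 1.29, adjusted p = 0.255). Both intervals lie above 0 without correction, and neither difference passed it. The pan-epithelial marker sum in 90 day villi was 1.26, 1.83, 2.2 and 1.87 times the untreated median at 5, 20, 60 and 180 ppm, and in 7 day villi at 180 ppm, where Ctnnb1 was not called, 1.46 times, and in 90 day villi the fibroblast, leukocyte and goblet sums were higher too, as given with Cldn2. Their part in the Ctnnb1 result was not tested. Probe Ctnnb1_73853 gave a like rise (0.62 in crypts at 60 ppm and 0.59, 0.74 and 0.90 in villi at 20, 60 and 180 ppm, all called), but it was not called in crypts at 180 ppm (0.46, adjusted p = 0.193) or villi at 5 ppm (0.37, adjusted p = 0.286, edgeR). Probe Ctnnb1_67615 did not, with -0.26 in crypts at 60 ppm and -0.18 in villi at 60 ppm (80.7 to 124 CPM against 98.1 to 131 CPM untreated), and across libraries it followed the first probe with r = 0.19 against 0.71 for Ctnnb1_73853. A further probe, Ctnnb1_78500, had 50 counts in all and failed the filter.

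**Figure D4:**
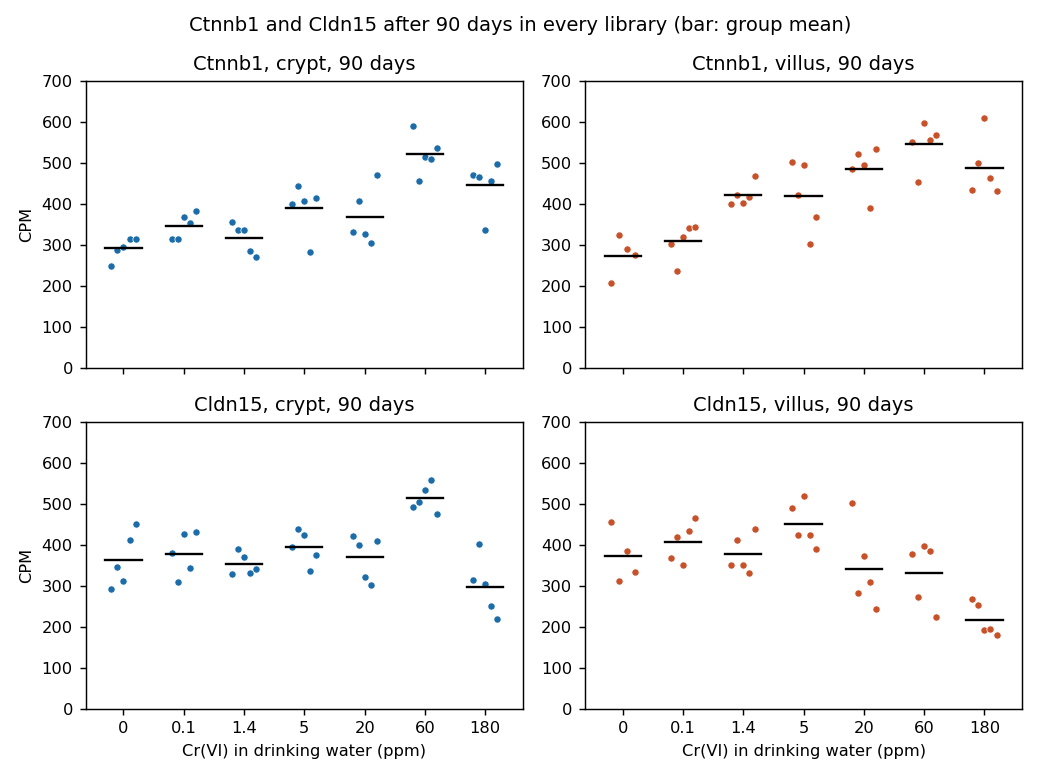
Level in CPM of Ctnnb1 (top) and Cldn15 (bottom) in each library after 90 days (points) against the dose of Cr(VI) in ppm, crypt on the left and villus on the right, with a bar for the group mean. Ctnnb1 at 60 ppm lies between 454 and 597 CPM in both compartments, above every untreated library, and Cldn15 at 180 ppm lies below every untreated library in the villus but not in the crypt.

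Ctnnd1, which steadies Cdh1 at the membrane, was by far the most counted of the 10 probes, with 0.203% of all counts. In crypts at 7 days it was below the untreated group from 0.1 to 60 ppm without growing with dose. Its untreated level was 1325, 2484, 2649, 3403 and 4152 CPM (mean 2802 ± 1060, SD, n = 5), against 984 to 1851 CPM at 0.1 ppm, 1089 to 1641 CPM at 1.4 ppm and 586, 1488, 1554, 1602 and 1797 CPM at 5 ppm. Each exposed group overlapped the untreated one through its lowest library of 1325 CPM. The log2 differences at 0.1, 1.4, 5, 20, 60 and 180 ppm were -0.90, -1.01, -1.0, -0.70, -0.67 and -0.24, of which that at 5 ppm was called (adjusted p = 0.0844, edgeR) while those at 0.1 and 1.4 ppm had adjusted p = 0.133 and 0.136. DESeq2 also called the values at 0.1, 1.4, 20 and 60 ppm lower (-0.88, -1.01, -0.77 and -0.66, adjusted p = 0.0982, 0.0586, 0.0676 and 0.0671). All 6 share the same untreated libraries.

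The call at 5 ppm was lost in 8 of 10 fits that left out 1 library and in 6 of 10 processing alternatives, and without the library of mouse 289, the lowest of the group, the difference was -0.79 (adjusted p = 0.533). The other Ctnnd1 probes did not fall as far at 5 ppm. Probe Ctnnd1_79111 was 98.9 to 241 CPM against 189 to 306 CPM untreated (-0.31 ± 0.18) and probe Ctnnd1_31807 10.6 to 25.3 CPM against 6.26 to 30.6 CPM (-0.25 ± 0.36), neither called. At 1.4 ppm they gave -0.01 and -0.44. The dose slope of Ctnnd1 in 7 day crypts was 0.002 (adjusted p = 1, edgeR).

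In 90 day crypts the direction was the opposite. At 60 ppm Ctnnd1 was 2360.0, 2705, 2779, 3265 and 4118 CPM against 1229, 1331, 1648, 1786 and 1875 CPM untreated, with no overlap and a log2 difference of 0.95 ± 0.22 (adjusted p = 0.000854, edgeR). Both other probes rose there without overlap, by 0.64 (368 to 404 CPM against 220.2 to 294 CPM) and 1.22 (26.3 to 40.2 CPM against 10.2 to 20.3 CPM), and both were called. At 180 ppm and 90 days the level was 1622 to 3032 CPM, which was not called. In 90 day villi Ctnnd1 was called at 5 ppm alone (0.62, 2285 to 5388 CPM against 1788 to 2396 CPM, adjusted p = 0.0906, edgeR), a call lost in 7 of 9 fits that left out 1 library and on size-factor scaling (0.50, adjusted p = 0.201), and neither other probe was called.

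**Figure D5:**
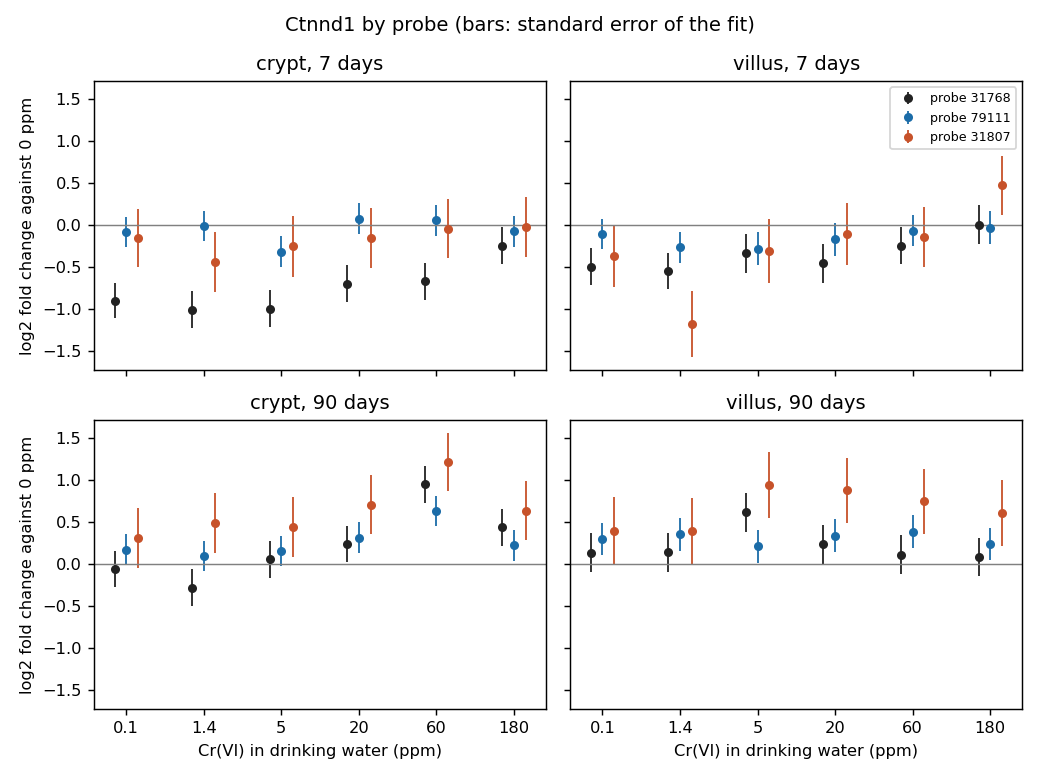
Log2 fold change of the 3 Ctnnd1 probes (colours) against untreated mice at each dose of Cr(VI) in ppm, in panels for crypt and villus at 7 and 90 days, with bars for the standard error of the fit. In 7 day crypts the most counted probe lies at -0.67 to -1.01 from 0.1 to 60 ppm and the others nearer 0, while at 60 ppm in 90 day crypts all 3 lie at 0.64 or above.

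Untreated Ctnnd1 was also compared between times. The crypt level was 0.83 lower on the log2 scale at 90 than at 7 days (interval -1.26 to -0.40, adjusted p = 0.272, edgeR) and the villus level 0.52 lower (-0.98 to -0.07, adjusted p = 0.269), so neither passed the correction. The effect of 180 ppm on Ctnnd1 in crypts was 0.68 higher at 90 than at 7 days (interval 0.08 to 1.29, adjusted p = 0.716). In 7 day villi the differences from untreated mice were between -0.54 and 0.01, none called. These comparisons rest on the same high untreated 7 day libraries as the values against dose.

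Differences between the compartments were also counted over all 10 genes, by edgeR without the mouse as a block. At 0 ppm and 7 days 1 member (Cldn4) was called between crypt and villus beside 0.637% of probes, and at 90 days Cldn2 was called higher and Cldn4 lower in crypts beside 10.9%. At 180 ppm Cldn4, Tjp1 and Ocln were called lower in crypts at 7 days (8.42% of probes) and Cldn4 at 90 days (9.21%). With the mouse as a block Ctnnd1 was also called at 180 ppm and 7 days (-0.59, adjusted p = 0.0691, against -0.37 and 0.397 without it). The block added Cldn2 as well, in untreated mice at 7 days and at 180 ppm and 90 days, as given above. For Cldn3, Cldn7, Cldn15, Cdh1 and Ctnnb1 the untreated crypt minus villus differences lay between -0.33 and 0.58, with intervals within -0.78 and 1.46. At 90 days DESeq2 also called Cldn7 (-0.50, adjusted p = 0.0598) and Ctnnd1 (-0.59, adjusted p = 0.0946) lower in untreated crypts, and both other Cldn7 probes were called lower there (-0.78 and -1.32). Within mice of all doses, the villus library was at or above the crypt library for Cldn7 in 55 of 66 mice, for Ocln in 54 and for Ctnnd1 in 53, and in the 9 untreated pairs in 8, 6 and 5.

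Between untreated mice of 90 and 7 days edgeR called 0 members in crypts (0.0379% of probes) and 0 in villi (2.44%), with 1 and 2 members at an unadjusted p under 0.05 and 0 called by DESeq2. Of all probes, 6.95% in crypts and 14.4% in villi had such an unadjusted p, and DESeq2 called 27 and 1766 probes. For the 180 ppm effect, edgeR called 0 members for a difference between villus and crypt at 7 days (0.00379% of probes, 1 member at an unadjusted p under 0.05) and at 90 days (0.224%, 0 members). It called 0 for a difference between 90 and 7 days in crypts (0.11%, 3 members at an unadjusted p under 0.05, namely Ocln, Ctnnb1 and Ctnnd1) and in villi (0.971%, 1 member, Ctnnb1). DESeq2 called 0 members in each of these 4 tests of a difference, and 97, 203, 46 and 715 of all probes. The shares of all probes at an unadjusted p under 0.05 by edgeR were, in the same order, 8.45%, 8.08%, 6.57% and 12.3%.

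The other junction genes were read from lists of 40 further tight junction genes (36 tested), 16 adherens junction genes (16 tested) and 10 desmosome genes (10 tested). At 180 ppm in crypts, 1 tight junction gene (2.78% of those tested, beside 4.13% of all probes) was called higher at 7 days, Ybx3, a transcription factor that binds Tjp1 (log2 difference 1.22). At 90 days 3 were called higher, Lsr of the tricellular junction (0.76), Ybx3 (1.1) and the polarity kinase Prkci (1.04), and 1 lower, the related kinase Prkcz (-0.95), together 11.1% of the tested genes beside 6.49% of all probes. The adherens junction genes Jup (plakoglobin, 0.86) and Cdh17 (the intestinal cadherin, 0.93) and the desmosome genes Dsg2 (0.83) and Perp (1.51) were called higher there and none of those lists lower. These were 12.5% of the tested adherens junction genes and 20% of the tested desmosome genes, beside 6.49% of all probes. Perp was low in untreated crypts (mean 5.43 ± 6.94 CPM, SD). Neither list had a call at 7 days. The list medians in 90 day crypts were 0.02, 0.04 and -0.07, beside -0.0045 for all probes.

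In villi at 180 ppm and 7 days, 2 tight junction genes were called higher, the polarity genes Crb3 (0.89) and Pard6b (1.17), and 2 lower, Prkcz (-1.22) and Jam3, together 11.1% of the tested genes beside 5.97% of all probes. Jam3 was at 0 in the 4 exposed libraries against a mean of 4.84 ± 4.87 CPM (SD, n = 5), so no fold is given. Nectin2 (2.09) was called higher and Nectin1 (-1.83) and Arvcf (-2.17), a relative of Ctnnd1, lower, and Dsg2 (0.69) was called higher. These were 18.8% of the tested adherens junction and 10% of the tested desmosome genes, beside 5.97% of all probes. Levels of Nectin2 (11.6 ± 11.3 CPM, SD, against 2.11 ± 2.97 CPM untreated) were low and varied between mice. So were those of Arvcf (2.67 ± 3.49 CPM against 13.45 ± 8.68 CPM). At 90 days Ybx3 (2.94) was called higher, and Pard3 (-2.78), Magi1 (-0.98) and Cldn14 lower, together 11.1% of the tested genes beside 13.8% of all probes. Pard3 was near the floor, at 1.03 ± 1.8 CPM (SD) against 8.49 ± 5.57 CPM untreated, and its log2 difference had a standard error of 1.04. Ybx3 was low in untreated villi (6.22 ± 7.2 CPM, against 53.2 ± 7.4 CPM). Cldn14 was at 0 in all exposed libraries and in 3 of 4 untreated ones, so its call rests on 1 library with 28 counts. Vinculin (Vcl, 0.94), Camsap3 (1.21) and Cdh17 (0.90) were called higher and the desmosomal cadherin Dsc2 (-0.65) lower. These were 18.8% of the tested adherens junction and 10% of the tested desmosome genes, beside 13.8% of all probes. The list medians were 0.03, 0.08 and 0.42 for tight junction, adherens junction and desmosome genes, beside 0.11 for all probes.

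Between untreated crypts and villi none of these lists had a call at 7 days, by edgeR. At 90 days Ybx3 (2.66), Cgnl1 (3.42) and Tjp3 (0.66) were higher in crypts, 5 tight junction genes were lower, among them Mpp5 (-1.56), Cgn (-1.35), Pard6b (-1.32) and Cldn14 (through the same 1 villus library), and the desmosome genes Perp (-2.41), Dsc2 (-0.93) and Dsg2 (-0.74) were lower. The 8 tight junction genes were 22.2% and the 3 desmosome genes 30% of those tested, beside 10.9% of all probes, and no adherens junction gene was called. Cgnl1 was near the floor in villi (0.861 ± 1.72 CPM, SD, against 11.1 ± 8.35 CPM in crypts), and its log2 difference had a standard error of 1.12. In 90 day villi at 180 ppm and in untreated crypts, Cldn2 and Ybx3 were both higher than in the same untreated villus libraries, which these comparisons share.

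Genes whose group means followed those of a member most closely were read from 7600 genes with a mean of at least 10 CPM, by Pearson's r over the 28 group means, as a description. For Cldn2 they were Gmds, a gene of fucose synthesis (r = 0.95), Krt19 and Ppia. For Cldn4 they were Liph, Sdcbp2 and Tm4sf4, for Cldn3 Atp1b1, Igha and Smim22, for Cldn7 Rac1, Sprr2a1 and Sfn, and for Cldn15 Gm21973, Prr15l and Slc25a13. For Tjp1 they were Npepps, Etfrf1 and Gm1123, for Ocln Gabarap, Bsg and Marc2, for Cdh1 Tuba1c, Cdc42se1 and Map2k3, and for Ctnnb1 Rab1a, Eif6 and Fcgbp. Ceacam1 and Tradd were among those of Ctnnd1. The 28 means share compartment, dose, scaling and, within each compartment and time, the untreated libraries.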

How the data were processed

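The authors deposited 1 table of raw counts per probe for 71 crypt and 66 villus libraries (TempO-Seq on mouse duodenum), made with bcl2fastq 2.17.1.14 and Bowtie as the submitters' processing notes name them, and the build that the probes were aligned to is not given in the sources used here. Counts were used as deposited, with column names matched to the labels. The genes and lists were chosen with earlier results of these data known. Probes with low counts were removed (filterByExpr, by group), libraries were scaled by TMM, and 1 model of 28 groups was fitted to all libraries with edgeR 4.0.16 (quasi-likelihood, R 4.3.3), with two-sided p adjusted by Benjamini-Hochberg over 26365 probes in each contrast and called under 0.1. Standard errors and 95% intervals come from that fit, and dose slopes from a linear contrast on dose rank. All 10 genes were tested in every comparison and those called are named. Other junction genes are named by smallest adjusted p (up to 3 a direction, and Cldn14 besides).

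Crypt and villus libraries of 1 mouse deviated together (median correlation of deviations 0.161 in 66 mice, against -0.0434 in 269 pairs of different mice, over 9975 probes), so a fit with the mouse as a block was an alternative, beside DESeq2 1.42.0, its size factors, the older edgeR fit, other count filters, counts thinned to equal depth, summed probes, an acinar marker covariate, separate fits and leaving out libraries. The alternatives that leave out single libraries of the crypt 5 ppm 7 day and villus 5 and 20 ppm 90 day groups were added after seeing the data. Counts were also simulated with the same spread for all probes and with changes in crypts at 180 against 0 ppm and 90 days. There the fit recovered 96 of 100 probes changed 4-fold and 24 of 100 changed 2-fold, with 17 false calls among 18432 probes (seed 1). Counting error is small for probes with many counts, where the spread between mice sets the precision. It is not small for probes with few counts, such as those of Cldn4 (at 0 in 18 libraries), Jam3 and Cldn14.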

Additional observations from a re-analysis of the deposited data

Results flagged for a closer look

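Of 280 sets of 1 gene in 1 group, 22 held a library whose gap to its nearest neighbour exceeded Dixon's 95% critical value on the log2 scale, and chance flags about 1 in 20 such sets. The value given for each is that gap as a share of the group's range. The crypt library of mouse 447 at 60 ppm and 7 days, with its smooth muscle marker sum of 3750 CPM, was the lowest of its group for 9 of the 10 genes and exceeded the critical value for 6: Cdh1 (53.7 CPM against 171 to 201 CPM in the others, ratio 0.878), Cldn3 (3.66 CPM against 16.3 to 25.4 CPM, 0.758), Cldn7 (0.75), Tjp1 (0.743), Ocln (0.725) and Cldn15 (0.711). Without it, as in 14 other fits that left out 1 library, Cldn3 lost its dose slope in 7 day crypts (-0.13, adjusted p = 0.159, edgeR) and Cldn2 kept its own (0.33).

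Ctnnd1 stood low in mouse 289 at 5 ppm and 7 days in both compartments, at 586 CPM in the crypt (the others 1488 to 1797 CPM, ratio 0.832) and 1845 CPM in the villus (2550 to 2620 CPM, 0.921). Cdh1 had further outlying villus libraries, low at 1.4 ppm and 7 days in mouse 209 (42.0 CPM, 0.982), at 20 ppm and 7 days in mouse 367 (95.7 CPM, 0.979) and at 180 ppm and 90 days in mouse 485 (0.814), and high at 1.4 ppm and 90 days in mouse 164 (302 CPM, 0.726).

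Ctnnb1 was high in crypts at 20 ppm and 7 days in mouse 368 (0.832), and low in crypts at 180 ppm and 90 days in mouse 485 (0.777), at 5 ppm and 90 days in mouse 245 (0.765) and at 0.1 ppm and 7 days in mouse 126 (59.7 CPM against 234 to 368 CPM, 0.75), and in villi at 60 ppm and 90 days in mouse 403 (0.716). The other 5 were Ocln low in villi at 5 ppm and 7 days (mouse 286, 0.946), Tjp1 high in crypts at 60 ppm and 90 days (mouse 402, 0.879), Cldn4 low in crypts at 0.1 ppm and 90 days (mouse 82, 0.753), Cldn3 high in villi at 1.4 ppm and 7 days (mouse 210, 0.741) and Cldn7 high in villi at 0.1 ppm and 90 days (mouse 83, 0.721).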

How the results depend on the processing

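No call of the 10 genes changed direction under a processing alternative or without a library (calls of other junction genes were not recomputed): of the comparisons of calls with processing alternatives 425 held and 54 were lost, and of those with 1 library left out 501 held and 102 were lost. Other probes reversed 11 values. Probe Ctnnb1_67615 gave -0.26 in crypts at 60 ppm and 90 days, -0.72, -0.33, -0.18 and -0.24 in villi at 5, 20, 60 and 180 ppm, and slopes of -0.028 and -0.043 in 90 day crypts and villi, and Tjp1_31684 gave -1.05 in crypts at 60 ppm, -0.24 in villi at 180 ppm, a slope of -0.088 in 90 day crypts and 0.65 for crypt minus villus at 180 ppm and 7 days. Summed over doses, member calls were 3 in 7 day crypts (8 with DESeq2, 2 to 7 without 1 library), 7 in 90 day crypts (12 in the separate fit, 5 to 8), 4 in 7 day villi (7 with DESeq2, 3 to 5) and 11 in 90 day villi (7 to 12). The shares of all probes called by edgeR at each dose in the main fit are given above, and the doses of a setting share the untreated group. Shares of all probes under the alternatives other than DESeq2 are not given. A changed member count under those is therefore not read as particular to the 10 genes. At 7 days DESeq2 also called more of all probes, in crypts 803 and 1404 at 60 and 180 ppm against 563 and 1089 by edgeR. In villi it called 2371 and 2297 against 1734 and 1573. Dose slopes were 2 in 7 day crypts (1 with the older fit, no filter, summed probes or without the libraries of mice 48 and 49, 1 to 2 without 1 library), 5 in 90 day crypts (3 with the older fit, 8 in the separate fit, 3 to 6), and 3 and 6 in villi (2 to 4 and 5 to 6). Between untreated compartments 1 gene at 7 days (Cldn4) became 0 with the older fit, and 2 with the mouse as a block or without mice 48 and 49 (0 to 1 without 1 library). DESeq2 called 0 there but gave no adjusted p for Cldn4, so it did not test that call. At 90 days 2 genes became 4 with DESeq2 (1 to 2 without 1 library), which called 3468 of all probes against 2866 by edgeR. At 180 ppm 3 genes at 7 days became 1 to 2 without 1 library, and 1 at 90 days became 2 with a mean count of 10, the acinar marker covariate, the mouse as a block or without mice 48 and 49 (1 to 2). Between untreated times, 0 in villi became 1 with size factors, a mean count of 10 or thinned counts (0 to 1 without 1 library, likewise in crypts), and the tests of a difference in effect stayed at 0 in every fit that left out 1 library. The block added calls of Cldn2 (untreated at 7 days, 180 ppm at 90 days) and Ctnnd1 (180 ppm at 7 days, making 4) and changed no other call between compartments. The causes were not tested. Groups of 4 to 6 mice limit what can be seen. In the simulated contrast, where all probes had the same spread, 24 of 100 changes of 2-fold were called. Each of the 10 genes has its own spread between mice, so that share is not theirs.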
